A study of Bombyx mori with 9 samples.

Results

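The genes described here encode factors that carry out translation initiation and elongation. They are all IDs of the count table that begin, in any case of letters, with eif or with ef, an optional hyphen, and 1 or 2. The rule found 13 genes among 16674 IDs, and all 13 passed the filter on low counts that left 7610 genes for the tests. Of these, 9 encode initiation factors: Eif2g of eIF2, the 6 eIF3 subunit genes eIF3-S9, eIF3c, eIF3-S7, eIF3g, eIF3h and eIF3i, and the helicase genes Eif-4a and eIF4AIII. The remaining 4, EF1a, Ef1beta, Ef-1d and Ef-1g, encode the subunits of elongation factor 1 (EF-1). No ID for elongation factor 2 matched the rule.

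Expression was measured by RNA-seq in whole silk glands of the mulberry silkworm *Bombyx mori*, with 1 larva per library and no treatment in any group. Larvae were collected on the third day of the fifth larval instar and frozen before dissection. The 3 LAT51 libraries (replicates 1, 2 and 4) came from larvae reared at CAR in Benguet, and the 3 MO204 libraries (1, 3 and 4) and 3 DMMMSU119 libraries (0, 2 and 4) from larvae reared at TCMO in Misamis Oriental, the site with the higher ambient temperature. The rearing facilities classed LAT51 and MO204 as priority strains and DMMMSU119 as a poorly performing strain. LAT51 was the only strain from CAR, so site and strain cannot be told apart in its comparisons, while MO204 and DMMMSU119 were compared within a site.

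In animals, eIF2 with bound GTP brings the initiator tRNA to the small ribosomal subunit, and eIF3, a large complex, holds the initiation factors there and links them to the mRNA. The helicase eIF4A unwinds the mRNA leader. In elongation, EF-1 alpha with bound GTP delivers each aminoacyl-tRNA to the ribosome, and the beta, gamma and delta subunits of EF-1 belong to the complex that reloads EF-1 alpha with GTP. The silk gland of the last instar makes fibroin and sericin in bulk and is known for a very high rate of protein synthesis.

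The libraries held 4527847 to 11641130 reads counted on genes. With another aligner, the paper examined only the 2 libraries of each strain with the most reads. In these it found a larger share of reads fitting several places of the genome in DMMMSU119 than in LAT51 and MO204. What this does to the counts was not tested. The TMM factors, by which edgeR corrects library sizes for the composition of the RNA, were low in DMMMSU119 (0.421 to 0.591) and high in LAT51 and MO204 (1.26 to 1.53). Markers of the silk gland (FIBH, Fib-l, P25, Ser2 and Ser3) took at most 18.6% of counts in LAT51 and MO204 and 21.7% to 32.3% in DMMMSU119. FIBH, the fibroin heavy chain gene, carried most of this difference, while Ser2 lay the other way, at 12126 to 19121 CPM of all counts in DMMMSU119 and 38298 to 107278 CPM in the other 6 libraries. The 8 fat body markers, storage protein, vitellogenin and 30K lipoprotein genes, took 0.00174% to 0.0915% of counts in LAT51 and MO204 and 0.199% to 4.99% in DMMMSU119, although the vitellogenin gene VG had 0 to 10 counts per library in DMMMSU119 and 56 to 80 in LAT51. The 4 muscle markers reached 0.116% in MO204-3 and 0.851% in DMMMSU119-0 and no more than 0.00512% in any other library. The 2 haemocyte markers, PPO1 and PPO2, stayed at or below 0.00186% in all 9 libraries. In whole glands, fewer cells of a type and less RNA per cell cannot be told apart.

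Levels are TMM-normalized CPM, that is counts scaled to a common corrected library size, and each SD is over 3 libraries. A log2 FC is the first-named strain over the second, and always the other strain over DMMMSU119 where DMMMSU119 is set against LAT51 or MO204. It comes from edgeR's quasi-likelihood test with its standard error (SE), and a gene was called differentially expressed (a DEG) at an adjusted p under 0.1 over all 7610 genes. With TMM, the median log2 FC of all tested genes was 0.01 in LAT51 vs. DMMMSU119 and 0.03 in MO204 vs. DMMMSU119. With library size as the only scaling, it was 1.39 and 1.43, so that the sign of a difference from DMMMSU119 depends on what it is set against. Levels and directions given below are TMM values, relative to the bulk of the genes, and ratios between genes of the same library, which need no scaling, are set beside them. Gene lengths were not used here, so levels are compared across libraries within a gene and not between genes.

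EF1a, Ef-1g and Ef1beta of EF-1 and the initiation factor genes eIF3i and Eif-4a were higher in DMMMSU119 than in both other strains, EF1a by the most. Ef-1d, eIF3g and eIF3h were higher in DMMMSU119 than in MO204 and were not called against LAT51. Eif2g was lower in DMMMSU119 than in both. In MO204 vs. DMMMSU119, 9 of the 13 genes were DEGs, against 33% of all tested genes, with 8 lower in MO204 (16.7% of all genes) and 1 higher (16.3%). In LAT51 vs. DMMMSU119, 6 were DEGs, against 38% of all genes, with 5 lower in LAT51 (19.8%) and 1 higher (18.2%), so that the total there was close to the background. The median log2 FC of the 13 genes was -1.09 in the first comparison and -0.62 in the second. The comparisons share the DMMMSU119 libraries and are not independent.

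The split by direction turned with the scaling. With library size alone, 6 of the 13 genes were called higher in MO204 than in DMMMSU119 (68.1% of all genes) and 1, EF1a, lower (4.97%), and 8 were called higher in LAT51 (66.8%) and none lower (7.5%). EF1a was the only member with a log2 FC below 0 in that fit of LAT51 vs. DMMMSU119 (unadjusted p = 0.263 in edgeR). Of the 15 calls made with TMM, 11 changed sign, namely all but those of EF1a and Eif2g. A change of scaling moves the log2 FC of all genes nearly alike. Values set against the median of all genes must therefore differ little between the scalings. EF1a lay 1.97 below that median on the log2 scale in MO204 vs. DMMMSU119 with TMM and 1.91 below it with library size alone. This likeness is no separate support for the calls.

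**Figure D1:**
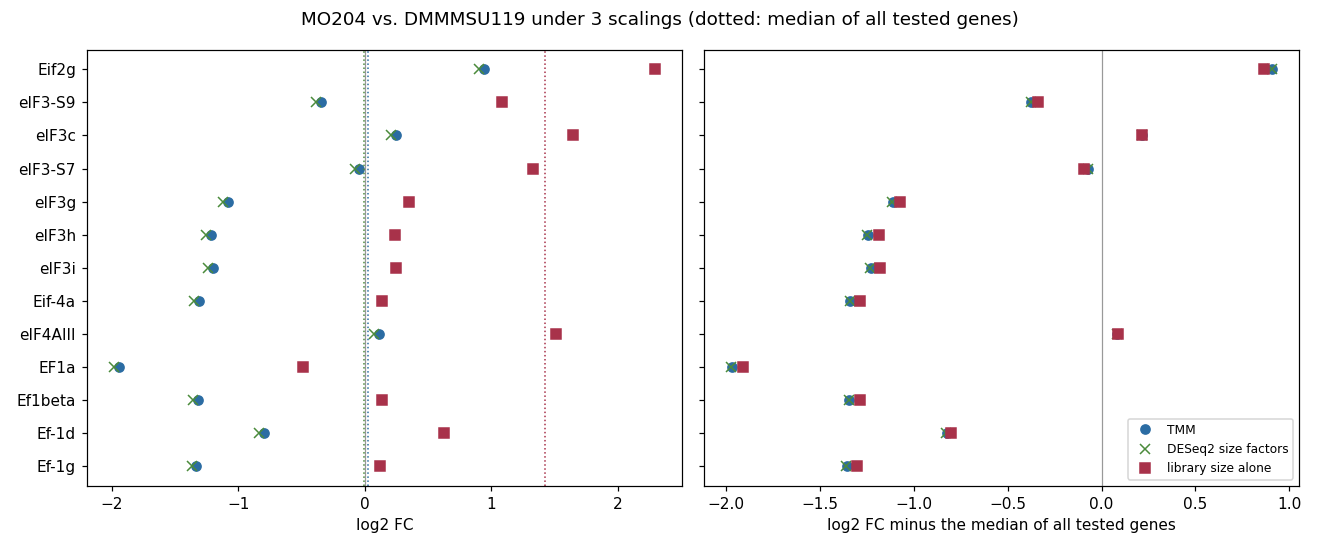
The log2 FC of MO204 vs. DMMMSU119 for the 13 genes under 3 scalings (left; dotted lines mark the median of all 7610 tested genes) and the same values minus that median (right). Library size alone moved all 13 values to the right together. After subtraction of the median the 3 scalings nearly coincide, as they must when a scaling moves all genes nearly alike.

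EF1a encodes EF-1 alpha, the subunit that carries aminoacyl-tRNA to the ribosome, and took 1.08% of all counts in the mean over the libraries, which placed it among the 10 most abundant genes. Its level was 7505, 6887 and 9197 CPM in LAT51-1, LAT51-2 and LAT51-4. It was 5351, 7380 and 6958 CPM in MO204-1, MO204-3 and MO204-4, and 17366, 36064 and 22343 CPM in DMMMSU119-0, DMMMSU119-2 and DMMMSU119-4. All 3 DMMMSU119 libraries lay above the other 6, and the LAT51 and MO204 ranges overlapped. The mean was 25258 ± 9684 CPM in DMMMSU119, 7863 ± 1196 CPM in LAT51 and 6563 ± 1071 CPM in MO204 (SD, n = 3 each). The log2 FC was -1.94 (SE 0.337, adjusted p = 0.00752 in edgeR) in MO204 vs. DMMMSU119 and -1.68 (SE 0.334, adjusted p = 0.00893) in LAT51 vs. DMMMSU119, that is 3.85-fold and 3.21-fold higher in DMMMSU119. Both were the largest differences among the 13 genes, and both calls held with each of the 9 libraries left out in turn. As a share of all counts, without TMM, EF1a spanned 10221 to 15176 CPM in DMMMSU119 and 8153 to 11597 in the other 6 libraries, and these ranges overlapped. The log2 FC was then -0.49 (adjusted p = 0.0597) against MO204 and -0.25 (adjusted p = 0.305) against LAT51.

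Ef-1g, for the gamma subunit of EF-1, was at 1733, 2498 and 3095 CPM in LAT51, 1892, 2388 and 2378 CPM in MO204, and 4479, 7698 and 4569 CPM in DMMMSU119, in the order of the library numbers. All DMMMSU119 values exceeded all others. Ef-1g had a log2 FC of -1.33 (SE 0.339, adjusted p = 0.0255) in MO204 vs. DMMMSU119 and -1.19 (SE 0.338, adjusted p = 0.0292) in LAT51 vs. DMMMSU119. The first of these calls was lost without MO204-1, at an adjusted p of 0.101. Ef1beta, which encodes a subunit with nucleotide exchange activity, was at 793, 1273 and 1401 CPM in LAT51, 842, 1085 and 970 CPM in MO204, and 1912, 3364 and 1937 CPM in DMMMSU119. Here too the DMMMSU119 libraries stood above the other 6. Against MO204 the log2 FC was -1.32 (SE 0.348, adjusted p = 0.0284) and -1.06 (SE 0.346, adjusted p = 0.0479) against LAT51. The call against MO204 was lost without MO204-1 (adjusted p = 0.107), and the call against LAT51 without LAT51-1 (0.134), LAT51-2 (0.113) or DMMMSU119-2 (0.154). The span of Ef1beta overlaps that of LOC101740340 in the gene table used for names, and the strand setting of the counting is not given in the sources used here, so reads of the pair may not be separated.

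Ef-1d encodes EF-1 delta, the other exchange subunit. It was at 625, 828 and 915 CPM in LAT51, 657, 775 and 662 CPM in MO204, and 893, 1350 and 1391 CPM in DMMMSU119. DMMMSU119-0 lay above every MO204 library but below LAT51-4. Ef-1d had a log2 FC of -0.80 (SE 0.297, adjusted p = 0.0811) in MO204 vs. DMMMSU119 and -0.62 (SE 0.297, adjusted p = 0.143) in LAT51 vs. DMMMSU119. The call against MO204 was the least firm of the 4 subunits: it was lost without LAT51-2 (adjusted p = 0.122), without any of the MO204 libraries (0.150 to 0.219), and without DMMMSU119-2 (0.176) or DMMMSU119-4 (0.190).

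**Figure D2:**
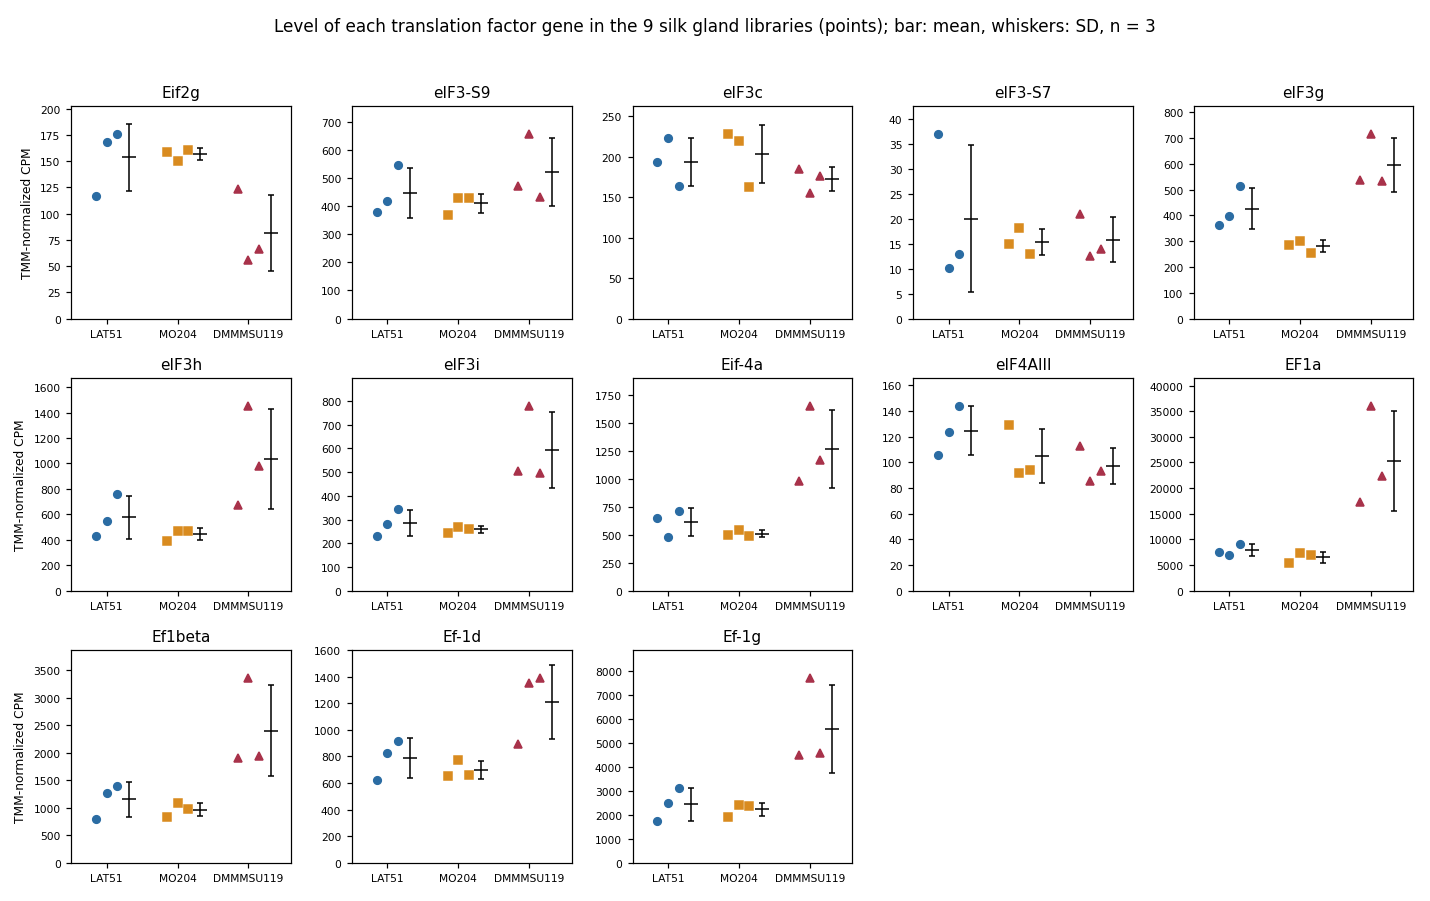
TMM-normalized CPM of each of the 13 genes in the 9 libraries (points, 1 per library and in the order of the library numbers within a strain), with the mean (bar) and SD (whiskers) of each strain, n = 3, each axis starting at 0. For 6 genes, eIF3g, eIF3i, Eif-4a, EF1a, Ef1beta and Ef-1g, the 3 DMMMSU119 points lie above all 6 others.

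The 6 eIF3 subunits were not all called alike, and no test compared them with each other. In MO204 vs. DMMMSU119, eIF3g, eIF3h and eIF3i were lower in MO204 and eIF3-S9, eIF3c and eIF3-S7 were not called. In LAT51 vs. DMMMSU119, 1 of the 6, eIF3i, was called.

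eIF3i was at 232, 281 and 342 CPM in LAT51, 243, 270 and 260 CPM in MO204, and 505, 780 and 494 CPM in DMMMSU119. DMMMSU119 did not overlap with the other strains, which overlapped each other. Its log2 FC was -1.20 (SE 0.304, adjusted p = 0.0248) against MO204 and -1.06 (SE 0.303, adjusted p = 0.0304) against LAT51, and the call against LAT51 was lost without LAT51-2 (adjusted p = 0.102).

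eIF3g, an RNA-binding subunit, was at 363, 399 and 515 CPM in LAT51, 286, 301 and 255 CPM in MO204, and 538, 717 and 533 CPM in DMMMSU119. It was the only member whose 3 strains occupied separate ranges, lowest in MO204 and highest in DMMMSU119, although LAT51-4 came close to the lowest DMMMSU119 library. In MO204 vs. DMMMSU119 its log2 FC was -1.09 (SE 0.284, adjusted p = 0.0275). It was -0.49 (SE 0.281, adjusted p = 0.218) in LAT51 vs. DMMMSU119 and 0.60 (SE 0.281, adjusted p = 0.409) in LAT51 vs. MO204, so the position of LAT51 between the other strains did not pass the test on either side.

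eIF3h spread more widely within strains, at 427, 544 and 760 CPM in LAT51, 394, 470 and 471 CPM in MO204, and 670, 1454 and 983 CPM in DMMMSU119. LAT51-4 exceeded DMMMSU119-0, and MO204 lay below all of DMMMSU119. The log2 FC was -1.22 (SE 0.361, adjusted p = 0.0404) in MO204 vs. DMMMSU119, a call that was lost without MO204-1 (adjusted p = 0.136), MO204-3 (0.102) or DMMMSU119-2 (0.122). In LAT51 vs. DMMMSU119 it was -0.84 (SE 0.359, adjusted p = 0.105).

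The other eIF3 subunits gave smaller values. eIF3-S9 encodes eIF3b, a scaffold of the complex, and its level ranged from 369 to 659 CPM with all strains overlapping except MO204 and DMMMSU119. Its log2 FC was -0.35 (SE 0.293, adjusted p = 0.403) in MO204 vs. DMMMSU119 and -0.22 in LAT51 vs. DMMMSU119. eIF3c, also a scaffold subunit, ranged from 155 to 229 CPM, and its log2 FC was 0.25 (95% interval -0.36 to 0.85) and 0.17 in the same comparisons. eIF3-S7, the gene for eIF3d, had few reads, 51 to 372 per library, and ranged from 10.1 to 37.1 CPM. Its highest value came from LAT51-1, above all 8 other libraries, and its log2 FC of -0.04 in MO204 vs. DMMMSU119 had an SE of 0.468.

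Eif-4a encodes the helicase of the cap-binding complex. It was at 652, 477 and 711 CPM in LAT51, 497, 546 and 489 CPM in MO204, and 981, 1654 and 1164 CPM in DMMMSU119. Every DMMMSU119 library was above the other 6. Eif-4a had a log2 FC of -1.31 (SE 0.307, adjusted p = 0.0193) against MO204 and -1.05 (SE 0.305, adjusted p = 0.0321) against LAT51, and the call against LAT51 was lost without LAT51-2 (adjusted p = 0.127). The span of Eif-4a overlaps that of LOC101741263, with the same limit as for Ef1beta. eIF4AIII, a related helicase known in other animals from the exon junction complex, ranged from 85.2 to 144 CPM. Its strains overlapped, and its log2 FC was 0.11 (95% interval -0.49 to 0.71) in MO204 vs. DMMMSU119 and 0.36 (95% interval -0.25 to 0.96) in LAT51 vs. DMMMSU119.

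Eif2g, for the GTP-binding gamma subunit of eIF2, went the other way. It was at 117, 168 and 176 CPM in LAT51, 159, 150 and 161 CPM in MO204, and 123, 56.2 and 66.0 CPM in DMMMSU119. DMMMSU119-2 and DMMMSU119-4 lay far below all others, and DMMMSU119-0 lay below MO204 but above LAT51-1. The log2 FC was 0.94 (SE 0.344, adjusted p = 0.0780) in MO204 vs. DMMMSU119 and 0.91 (SE 0.344, adjusted p = 0.0757) in LAT51 vs. DMMMSU119, 1.92-fold and 1.88-fold higher than in DMMMSU119. These calls stood close to the threshold. In MO204 vs. DMMMSU119, adjusted p rose to between 0.105 and 0.207 without LAT51-2, DMMMSU119-2, DMMMSU119-4 or any of the MO204 libraries. In LAT51 vs. DMMMSU119, it rose to between 0.106 and 0.208 without LAT51-2, LAT51-4, MO204-1, MO204-3, DMMMSU119-2 or DMMMSU119-4. As a share of all counts, without TMM, Eif2g was at 23.6 to 72.6 CPM in DMMMSU119 and 179 to 242 CPM in the other 6 libraries, without overlap. With that scaling 57.3% of all tested genes had DMMMSU119 below the other 6, so this order is the common one. The gene table lists su(var)3-9 as another name of this ID, and the reads of the products cannot be split here.

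**Figure D3:**
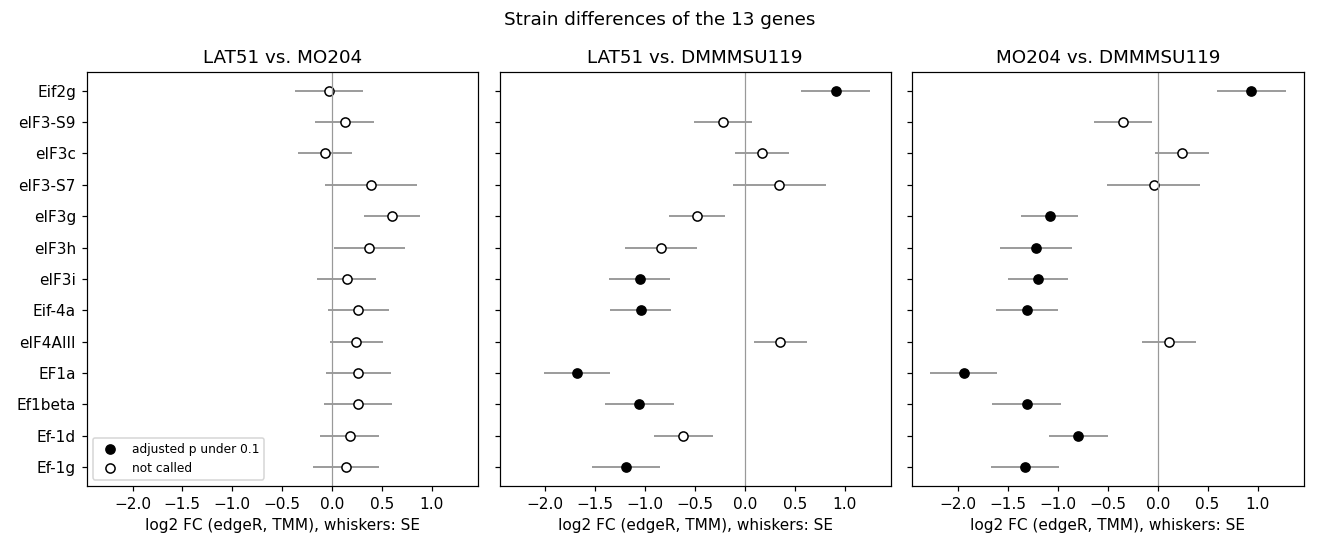
The log2 FC of the 13 genes in the 3 comparisons between strains (edgeR, TMM), with SE as whiskers; filled points are DEGs at an adjusted p under 0.1. No point is filled in LAT51 vs. MO204, while 6 and 9 are filled in the comparisons with DMMMSU119.

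Counted over libraries, 6 of the 13 genes (eIF3g, eIF3i, Eif-4a, EF1a, Ef1beta and Ef-1g) had all 3 DMMMSU119 values above the other 6, against 12.8% of all tested genes, and eIF3g had all 3 MO204 values below the rest, against 2.97%. Pair by pair, MO204 lay wholly below DMMMSU119 for 9 of the 13 genes (18.9% of all genes) and wholly above it for 1, Eif2g (22.8%). LAT51 lay wholly below DMMMSU119 for the same 6 genes as above (19.9%) and wholly above it for none (20.9%). With library size alone none of the 13 had DMMMSU119 above the rest, against 2.46% of all genes, eIF3g and eIF3h had LAT51 above the rest (7.7%), and 8 (Eif2g, eIF3-S9, eIF3c, eIF3-S7, eIF3g, eIF3i, eIF4AIII and Ef-1d) had all 3 DMMMSU119 values below the other 6, against 57.3%. Other abundant genes lay on the same side. Of the 160 tested genes with a mean above 1000 CPM, which include EF1a, Ef1beta and Ef-1g, 125 were called lower in MO204 than in DMMMSU119 and 5 higher, with a median log2 FC of -1.43. The 510 genes between 100 and 1000 CPM, which include 9 members, had a median of -0.13.

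Ratios of counts within a library need no scaling. They restate differences of the same genes in the same libraries and are not separate support. How often other pairs of genes would separate the strains was not computed. The 4 EF-1 genes together had 4.25, 4.34 and 4.33 counts for each count on the 9 initiation factor genes in LAT51, and 3.77, 4.65 and 4.69 in MO204. In DMMMSU119 the ratio was 6.83, 8.70 and 7.64, above all 6 other libraries. EF1a alone made up 48.4% to 57.0% of the counts of the 13 genes in LAT51 and MO204 and 61.5% to 66.7% in DMMMSU119.

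The ratios of EF1a to Eif2g, Eif-4a to eIF4AIII, and eIF3i and eIF3h to eIF3c pair genes with unlike calls in MO204 vs. DMMMSU119. The first-named gene was called lower in MO204, and the second was not called or, for Eif2g, called higher. A separation of DMMMSU119 from MO204 was therefore largely set by the choice of pairs. No test compared the genes of a pair. EF1a had the lowest and Eif2g the highest log2 FC of the members in that comparison. The ratio of EF1a to Eif2g counts was 64.2, 41.0 and 52.1 in LAT51 and 33.6, 49.1 and 43.3 in MO204. It was 141, 642 and 339 in DMMMSU119, where the lowest value stood well above the highest of the other strains. Within helicases, Eif-4a had 3.86 to 6.16 counts per count of eIF4AIII in LAT51, 3.84 to 5.94 in MO204 and 8.69 to 19.4 in DMMMSU119. Within eIF3, the ratio of eIF3i to eIF3c was 1.20 to 2.09 in LAT51, 1.07 to 1.60 in MO204 and 2.74 to 5.02 in DMMMSU119, again without overlap. That of eIF3h to eIF3c was 2.20, 2.43 and 4.63 in LAT51, 1.72, 2.14 and 2.89 in MO204 and 3.64, 9.35 and 5.59 in DMMMSU119, where LAT51-4 exceeded DMMMSU119-0.

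Other ratios overlapped between strains. Ef-1g had 1.96 to 2.45 counts for each count on Ef1beta over all 9 libraries, with DMMMSU119 at 2.29 to 2.36, inside the range of the others. The ratio of EF1a to Ef1beta was 5.41 to 9.47 in LAT51, 6.35 to 7.17 in MO204 and 9.08 to 11.5 in DMMMSU119, and LAT51-1 lay inside the DMMMSU119 range.

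**Figure D4:**
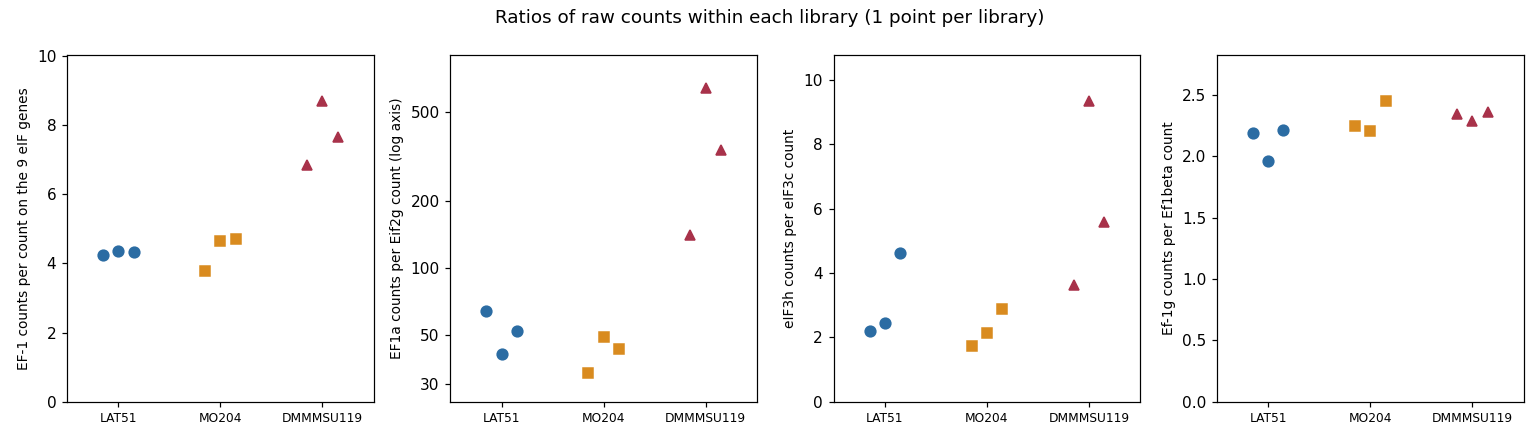
Ratios of raw counts within each library, 1 point per library: the 4 EF-1 genes to the 9 initiation factor genes, EF1a to Eif2g (log axis), eIF3h to eIF3c, and Ef-1g to Ef1beta. The first and second ratios separate DMMMSU119 from the other 6 libraries, the ratio of eIF3h to eIF3c overlaps at LAT51-4, and that of Ef-1g to Ef1beta stays between 1.96 and 2.45 everywhere.

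The share of all counts on the 13 genes together did not separate the strains. It was 2.01%, 1.88% and 2.27% in LAT51, 1.69%, 1.88% and 1.75% in MO204, and 1.66%, 2.27% and 1.96% in DMMMSU119. The means were 2.05 ± 0.197%, 1.77 ± 0.0979% and 1.97 ± 0.306% (SD, n = 3 each).

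Between LAT51 and MO204, the priority strains of the different sites, no difference in the 13 genes was detectable with this number of larvae. None was a DEG in LAT51 vs. MO204, against 3.07% of all tested genes, and none had an unadjusted p under 0.05 in edgeR (13% of all genes). DESeq2's Wald test called none at its adjusted threshold (5.66% of the 8430 genes given an adjusted p there). At an unadjusted p under 0.05 in that test there was 1, and the share of all genes at that threshold was not computed. The log2 FC ran from -0.07 (eIF3c) to 0.60 (eIF3g) with a median of 0.24, against -0.01 for all genes, and 11 of the 13 values were above 0. The 95% intervals reached from -0.79 to 1.42 over the 13 genes, so differences of up to about that size remained possible. For eIF3g alone did all LAT51 libraries lie above all MO204 libraries, a pattern seen in 9.95% of all genes.

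In CAR vs. TCMO, the comparison of the study's own model, in which the 6 TCMO libraries of both strains form 1 group, none of the 13 genes was a DEG, against 1.48% of all genes. None had an unadjusted p under 0.05 in edgeR (15.7% of all genes), and DESeq2's Wald test called none (10.2% of the 9100 genes given an adjusted p there). The median log2 FC was -0.27, against -0.04 for all genes, and the lowest was -1.02 (SE 0.672, adjusted p = 0.484) for EF1a. In this grouping MO204 and DMMMSU119 values are averaged, and EF1a ranged from 5351 to 36064 CPM within TCMO. With 1 mean per strain and LAT51 set against the average of the other strains, none was called, against 15.8% of all genes. The lowest adjusted p of the 13 genes in that edgeR fit was 0.151, for EF1a.

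Within a strain, single larvae stood high or low for most of the genes. LAT51-4 had the highest of the 3 LAT51 values for 11 of the 13 genes and LAT51-1 the lowest for 9. MO204-3 was highest for 9 of the genes in MO204, and DMMMSU119-2 for 8 in DMMMSU119. How often these libraries were highest or lowest over all tested genes was not computed. The median coefficient of variation over the 13 genes was 19.6% in LAT51, 9.96% in MO204 and 27.4% in DMMMSU119. DMMMSU119-0, the library with the highest fat body and muscle marker shares, had the lowest EF1a and the highest Eif2g level of its strain, and the part of these tissues in the results was not tested. Without DMMMSU119-0 and MO204-3, 8 of the 13 genes were DEGs in LAT51 vs. DMMMSU119 (37.6% of all genes) and 9 in MO204 vs. DMMMSU119 (27.2%), and no call made with all libraries was lost. This removal took out the libraries with the highest muscle marker shares only. DMMMSU119-2 and DMMMSU119-4 kept fat body marker shares of 1.10% and 0.199%, above every LAT51 and MO204 library, so fat body markers and strain stayed confounded.

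Other genes of the pathway, taken by symbol or synonym, included 4 more eIF3 subunits. Of these, eIF3e (LOC692936) was lower in MO204 (log2 FC -1.21, adjusted p = 0.0239) and in LAT51 (-0.90, adjusted p = 0.0504) than in DMMMSU119, and the genes for eIF3f, eIF3j and eIF3k (LOC733116, LOC733089 and LOC733122) were not called in any comparison. Of the poly(A)-binding protein genes, Pabn1, for the nuclear protein, was higher in LAT51 (1.57, adjusted p = 0.0253) and in MO204 (1.31, adjusted p = 0.0524) than in DMMMSU119, and Pabp, for the cytoplasmic protein that joins the mRNA tail to the initiation complex, was not called (-0.54 and -0.67, adjusted p = 0.160 and 0.102).

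Of the 3 genes for the TOR kinase, which promotes translation when nutrients are plentiful, and its target S6 kinase, TOR1 was lower in LAT51 (-2.49, adjusted p = 0.00554) and MO204 (-2.47, adjusted p = 0.00835) than in DMMMSU119, on 14 to 145 counts per library. The S6 kinase gene LOC100174852 was higher (0.71, adjusted p = 0.0583, and 0.83, adjusted p = 0.0417), and TOR2 was not called. Of 79 cytosolic ribosomal protein genes, 77 were lower and 2 higher in MO204 than in DMMMSU119 (median log2 FC -1.44), and 68 were lower and 2 higher in LAT51 (median -1.22). Over all tested genes, 16.7% and 19.8% were called lower in these comparisons and 16.3% and 18.2% higher. The medians of the 4 EF-1 genes in the comparisons with DMMMSU119 were -1.32 and -1.12, close to those of the ribosomal protein genes, and those of the 6 eIF3 genes were -0.72 and -0.35. The 160 tested genes with a mean above 1000 CPM had medians of -1.43 and -1.24. How far the likeness goes beyond abundance was not tested. All of these directions are those of the TMM scaling.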

How the data were processed

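Reads were trimmed by the authors (fastp 0.20.0 and Trimmomatic 0.39), aligned to the NCBI *B. mori* genome (HISAT2 2.1.0) and assigned to genes (featureCounts 1.4.6-p5), which gave the raw counts they deposited. Values in the deposited log2 table equal log2 of the count divided by a DESeq2 size factor, plus 1, within 5.3e-14. Libraries were grouped by the strain and site in their labels.

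Counts were tested with edgeR 4.0.16 (R 4.3.3): filterByExpr, TMM and the quasi-likelihood test, with location as factor for CAR vs. TCMO and 1 mean per strain over all 9 libraries for the strain pairs. Benjamini–Hochberg adjustment ran over all 7610 tested genes. The SE was taken from the F statistic. Alternatives were DESeq2 1.42.0 size factors or Wald test, library size alone, scaling without the 10 most abundant genes, limma 3.58.1 on the log2 values, each library left out, a block for the replicate number and other filters. Leaving out DMMMSU119-0 and MO204-3 together was added after the data were seen. The scripts were tested on simulated data. Plots were made with matplotlib 3.10.9.

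All 13 genes were matched by symbol in a RefSeq gene table of the assembly ASM3026992v2, used for names, synonyms and overlaps only. Values in each library are given for genes called in any comparison, for the EF-1 genes, for genes whose libraries of 1 strain lie outside the other 6, and for the 5 with the highest mean CPM. The members and lists were chosen with earlier results of these data known, so no set test was run. Genes for aminoacyl-tRNA synthetases, the eIF4E-binding protein and eIF2 alpha kinases were not analysed here. With 1 library per larva, p-values measure the spread between larvae. No library repeated another (chi-square per degree of freedom 49.5 to 218 between replicates).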

Additional observations from a re-analysis of the deposited data

Results flagged for a closer look

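eIF3-S9, the gene for eIF3b, had 1 library apart from the rest of its site. Over the 6 TCMO libraries its highest value, 659 CPM in DMMMSU119-2, lay above the next by 0.643 of the whole range, over Dixon's limit for 6 samples. Chance alone gives such a gap in about 1 in 20 groups, and 13 genes were looked at.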

How the results depend on the processing

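Of the 15 calls against DMMMSU119, DESeq2 size factors, scaling without the 10 most abundant genes, DESeq2's Wald test, limma and the removal of DMMMSU119-0 and MO204-3 kept all 15, no low-count filter lost 2 and the 10-count filter lost 1. With library size alone, the median log2 FC of the 13 genes was 0.45 in CAR vs. TCMO, 0.76 in LAT51 vs. DMMMSU119 and 0.35 in MO204 vs. DMMMSU119. In LAT51 vs. DMMMSU119 it turned eIF3i to 0.35, Eif-4a to 0.38, Ef1beta to 0.36 and Ef-1g to 0.22, and in MO204 vs. DMMMSU119 eIF3g to 0.35, eIF3h to 0.24, eIF3i to 0.24, Eif-4a to 0.14, Ef1beta to 0.14, Ef-1d to 0.62 and Ef-1g to 0.12. The same scaling moved the median of all genes from 0.01 to 1.39 and from 0.03 to 1.43. Without the 10 most abundant genes, EF1a among them, in the share, the members took 1.32%, 1.23% and 1.06% of the remaining counts in LAT51, MO204 and DMMMSU119.

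With each library left out in turn, called members ranged from 2 (without LAT51-2, with 22.1% of all genes called) to 8 (without DMMMSU119-0, 40.7%) in LAT51 vs. DMMMSU119 and from 4 (without MO204-1, 15.6%) to 9 (without LAT51-1, LAT51-4 or DMMMSU119-0, 29.4% to 36.2%) in MO204 vs. DMMMSU119, so the share over all genes moved as well. The replicate numbers only name different larvae. Deviations of same-numbered libraries correlated at -0.151 to 0.229. With a replicate block, 2 members were called in LAT51 vs. DMMMSU119 (24.2% of all genes) and 0 in MO204 vs. DMMMSU119 (6.65%). At an unadjusted p under 0.05 in edgeR there were 3 in each, and the share of all genes at that threshold was not computed. Over all genes the calls fell from 2891 to 1843 and from 2513 to 506. In that fit DMMMSU119-0 and MO204-3 have numbers that no other library has, so they add nothing to the strain differences. The added terms also leave fewer degrees of freedom for the spread. How far this accounts for the fall was not tested. eIF3-S7, with 51 to 372 reads per library, was the member most limited by depth.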
